A study of Mus musculus with 12 samples.

Results

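Respiratory complex I, the NADH:ubiquinone oxidoreductase of the inner mitochondrial membrane, was examined through its nuclear genes in mouse kidney. The genes were taken by name, as every probe whose platform annotation gives a symbol beginning with Nduf, pseudogene symbols excepted. This gave 67 probes for 43 genes, out of 45281 probes on the Illumina array. By symbol 9 genes were core (Ndufs and Ndufv), 26 accessory (Ndufa, Ndufab, Ndufb and Ndufc) and 8 assembly factors (Ndufaf). Probes were tested where their intensity lay above background on at least 6 of 12 arrays, which kept 63 probes and 42 genes. The assembly gene Ndufaf6 was above background on no array, and a further 3 dim probes belonged to Ndufaf7 and Ndufb2, whose other probes were tested.

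Total RNA came from kidneys of male C57BL/6J mice, an inbred strain, at postnatal day 28. The 6 ethanol samples came from offspring of dams that freely drank 10% (v/v) ethanol between fertilization and gestation day 8.5. The other 6 samples are labelled as controls; the labels carry the same treatment sentence for every sample, so what the control dams drank is not given in them. Each sample was hybridised to 1 array, so the number of arrays limits the precision. No label names a dam, a litter or an individual animal, and a p-value here therefore reflects the spread among the 12 samples, which may be technical. In whole tissue, fewer cells of a type and less RNA per cell cannot be told apart.

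Complex I passes electrons from NADH to ubiquinone and pumps protons across the inner membrane. A small set of conserved subunits carries the flavin, the iron-sulfur clusters and the proton path, some encoded in the nucleus and the rest in mitochondrial DNA. Accessory subunits surround this core and stabilise it, and assembly factors help to build the enzyme without staying in it. The tubules of the kidney, above all the proximal tubule and thick ascending limb, are rich in mitochondria that pay for the reabsorption of salt and solutes. Symbol and function do not match fully: Ndufs4, Ndufs6 and Ndufv3 are accessory by function, Ndufab1 is the mitochondrial acyl carrier protein, and Ndufa4 is now counted as a subunit of cytochrome c oxidase.

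The arrays resembled kidney. The proximal tubule genes Lrp2, Cubn, Slc34a1 and Kap and the thick ascending limb genes Umod and Slc12a1 were tested in every case, and the skeletal muscle genes Acta1, Myh4 and Ckm were not. Between 50.4% (ethanol 2) and 56.9% (control 2) of probes lay above background on an array. Before normalization, ethanol 2 also had the highest median intensity (26.2), with control 4 next (25.7). Arrays correlated at 0.952 to 0.992 over the tested probes. The first principal component held 32.6% of the variance, and the mean complex I profile over the 12 kidneys followed it with a Pearson's r of -0.69. On that component ethanol 2 scored 45.7 and ethanol 3 scored 37.5, and control 4 scored -62.5. Levels are given below as normalised log2 intensity, on which a higher level of one gene's probe does not mean more of its transcript than of another gene's.

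The upstream sequence is shown for 6 members described below whose 80 bases before the annotated gene start held a searched motif. These members either followed the shared complex I profile across kidneys closely (Ndufa11, Ndufaf8, Ndufs3, Ndufa8 and Ndufb7) or ran slightly against it (Ndufaf1). The sequences are RefSeq's (GRCm38.p6), each 5′ to 3′ on the gene's strand and ending at the base before the start. Capitals mark the ETS core CCGGAAG or the NRF1 motif GCGCATG, read on either strand.
Ndufa11, chr17:56717682-56717761, plus strand: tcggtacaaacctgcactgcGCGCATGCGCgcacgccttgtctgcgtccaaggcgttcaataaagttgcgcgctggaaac
Ndufa8, chr2:36049339-36049418, minus strand: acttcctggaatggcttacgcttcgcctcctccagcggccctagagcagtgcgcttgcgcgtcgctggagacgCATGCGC
Ndufaf8, chr11:120098854-120098933, plus strand: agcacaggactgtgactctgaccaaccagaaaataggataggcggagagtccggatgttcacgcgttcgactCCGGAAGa
Ndufs3, chr2:90904722-90904801, minus strand: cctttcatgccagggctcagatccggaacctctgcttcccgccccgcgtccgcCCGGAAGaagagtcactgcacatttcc
Ndufb7, chr8:83566678-83566757, plus strand: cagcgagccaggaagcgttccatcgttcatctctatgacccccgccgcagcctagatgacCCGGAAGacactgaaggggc
Ndufaf1, chr2:119662835-119662914, minus strand: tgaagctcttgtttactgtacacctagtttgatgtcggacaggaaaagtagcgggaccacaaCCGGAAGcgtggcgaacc

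Promoter windows of 300 bases, from 250 before the start to 50 after it, were found for 39 of the 43 member genes. The NRF1 motif was present in 7 of them (17.9%), among them Ndufa6, Ndufaf4, Ndufaf5, Ndufb6 and Ndufb8, against 4.41% of 27025 genes with a window. The YY1 core AAGATGG was present in 8 (20.5%), against 7.28% of all genes. The ETS core was present in 6 (15.4%), against 9.93% of all genes. The core of the estrogen-related receptor motif, AAGGTCA, was present in 2 (5.13%), against 5.38% of all genes. Both strands were searched, and in Ndufa11 the matches on the 2 strands overlap. The median log2 difference between ethanol and control kidneys was 0.03 for members with the NRF1 motif and -0.03 for those without, and -0.13 with the ETS core and near 0 without. A match is a description of these letters in the window and says nothing of binding.

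Prenatal ethanol exposure was compared with control for every tested probe in limma. None of the 63 complex I probes passed an adjusted p under 0.05, and over all 23984 tested probes 0% passed, with 2915 probes (12.2%) at an unadjusted p under 0.05. At that unadjusted threshold complex I had 3 probes lower in ethanol and 0 higher, where 6.81% of all tested probes were lower and 5.35% higher. These 3 were 1 probe each of Ndufaf8, Ndufa8 and Ndufab1. They make up 4.76% of the complex I probes, so the share lay below the 12.2% seen across the array. The count of 3 turned on single kidneys: it was 0 without ethanol 2, 1 without ethanol 3, control 1 or control 3, 6 without ethanol 1 and 7 without control 2. Over all tested probes, the number at that threshold in either direction moved the same way from 2915. It fell to 1807 without ethanol 2, 1828 without ethanol 3, 2200 without control 1 and 2436 without control 3. It rose to 3332 without ethanol 1 and 3773 without control 2. Ethanol 2 was also the array with the smallest share of probes above background (50.4%), and the part of array quality in these counts was not tested. The groups did not overlap for 0 of the 63 probes, against 0.484% of all tested probes. The smallest adjusted p among complex I probes was 0.379 (limma, n = 6 per group).

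Most complex I genes differed little between the groups. The brightest tested probe, by its mean over the 12 arrays, stood for each gene. Of the 42 genes, 23 lay below 0 and 19 above, with a median log2 difference of -0.01, where 45.4% of all 12618 tested genes lay below 0 and their median was 0.02. The difference was under 0.2 on the log2 scale in either direction for 36 of the 42 (85.7%), against 68.8% of all tested genes. The 95% interval of the difference lay inside 0.5 either way, or 1.41-fold, for 35 (83.3%), against 59.99% of all tested genes. For those 35 genes a change beyond that size is outside the interval of the probe that stood for the gene. The exceptions by that probe were Ndufs1, Ndufb7, Ndufa11, Ndufb9, Ndufb11, Ndufaf7 and Ndufaf8. Among the 35, dimmer probes of Ndufv3, Ndufaf4, Ndufa8, Ndufab1 and Ndufb8 had intervals that passed 0.5. The interval was -1.06 to 0.14 for that probe of Ndufv3 and -0.05 to 0.69 for that of Ndufaf4.

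**Figure D1:**
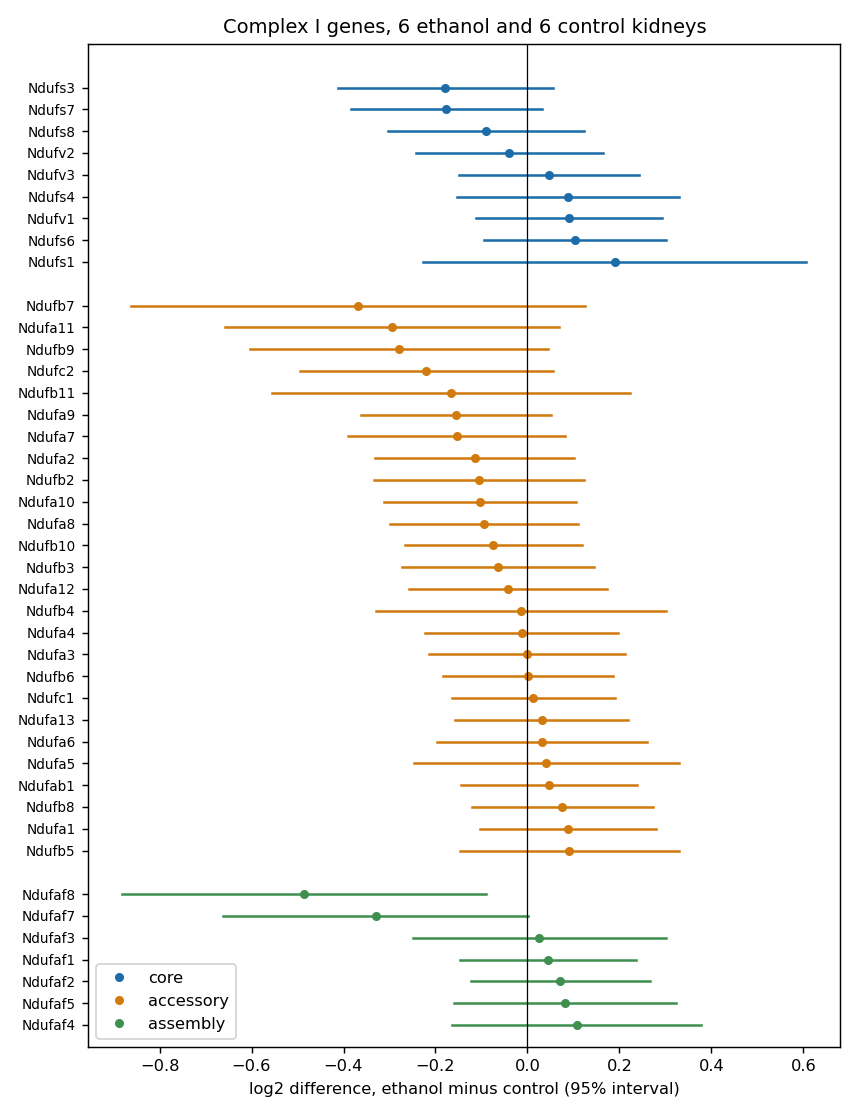
Log2 difference (ethanol minus control) of the 42 tested complex I genes, 1 probe per gene, with dots for the estimate and bars for the 95% interval from limma over 6 ethanol and 6 control kidneys. Core genes ran from -0.18 (Ndufs3) to 0.19 (Ndufs1), accessory genes from -0.37 (Ndufb7) to 0.09 (Ndufb5) and assembly genes from -0.48 (Ndufaf8) to 0.11 (Ndufaf4), and the interval of Ndufaf8 alone left out 0.

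Core genes lay on both sides of 0, with 5 of 9 above and a median of 0.05, which was 0.00562 without control 4 and -0.0391 with the probes of a gene averaged. The 6 conserved catalytic subunits among them had a median of -0.06 with 4 below 0, and the 3 that are accessory by function (Ndufs4, Ndufs6 and Ndufv3) all lay above 0, with a median of 0.09. Ndufs3, a conserved subunit of the peripheral arm, ran between 12.32 and 12.74 with a median of 12.58 in ethanol kidneys, against 12.55 to 12.91 with a median of 12.83 in controls. Ethanol 2 was the lowest of the 12 and the ranges overlapped. The log2 difference was -0.18 ± 0.11 (SE; limma, adjusted p = 0.519).

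Ndufs7, which carries the iron-sulfur cluster next to ubiquinone, differed by a similar amount, averaging 13.69 ± 0.09 over the ethanol kidneys and 13.86 ± 0.14 over the control kidneys (SD, n = 6 each). Ndufv1, the subunit that binds NADH and the flavin, lay on the other side, averaging 14.06 ± 0.08 over the ethanol kidneys and 13.97 ± 0.13 over the control kidneys (SD). The log2 difference of 0.09 ± 0.09 (SE) was no larger than its error. By the probe that stood for the gene, Ndufv3 varied least of the core genes, from 13.19 to 13.42 in ethanol and from 13.17 to 13.44 in controls. The SD over the 12 kidneys was 0.09 by that probe and 0.59 by the dimmest probe of Ndufv3. Ndufs1, which holds several iron-sulfur clusters, was dim here and above background in 5 of 6 ethanol and 4 of 6 control kidneys. Its probe ran from 4.97 to 5.82 with a median of 5.6 in ethanol, against 4.88 to 5.87 with a median of 5.26 in controls (log2 difference 0.19 ± 0.19 SE). The difference was 0.10 with an offset of 50 or without control 3, 0.11 without control 2, 0.30 without control 6 or ethanol 1, 0.33 with the deposited values as they stand and 0.39 without background correction. That probe lay near background, and it carried the widest interval of the core genes (-0.23 to 0.61).

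Accessory genes leaned below 0, with 17 of 26 lower in ethanol and a median of -0.05, against 45.4% of all tested genes lower. The median was -0.0171 without control 3 and -0.0263 without ethanol 2. No member passed, and 0 of 26 reached an unadjusted p under 0.05 by the probe that stood for the gene, against 9.67% of all tested genes so represented. The lean was seen in the Ndufa (9 of 14 below 0) and Ndufb (7 of 10) genes, while the 2 Ndufc genes lay 1 on each side. Ndufb7, a subunit of the membrane arm on its intermembrane-space side, ran from 7.32 to 8.63 with a median of 8.03 in ethanol, against 7.75 to 8.70 with a median of 8.48 in controls. Ethanol 2 and 3 were lowest (7.32 and 7.40) while ethanol 6 (8.63) lay among the highest controls. Its difference of -0.37 ± 0.23 (SE) stood beside an SD over the 12 kidneys of 0.47, the widest among the probes that stood for a gene (limma, adjusted p = 0.527).

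Ndufa11, a membrane subunit, ran from 10.88 to 11.68 with a median of 11.44 in ethanol, against 11.13 to 11.95 with a median of 11.63 in controls. Here too ethanol 2 and 3 and control 2 were low and the ranges overlapped (log2 difference -0.29 ± 0.17 SE; limma, adjusted p = 0.493). Ndufb9 (-0.28 ± 0.15 SE), another membrane arm subunit, and Ndufc2 (-0.22 ± 0.13 SE), which lies in the proximal membrane arm, were the next largest on this side. At the other end stood Ndufc1, which ran from 13.11 to 13.21 in ethanol and from 13.05 to 13.21 in controls, with an SD over the 12 kidneys of 0.05, the smallest among the probes that stood for a gene. Ndufb6, Ndufa13 and Ndufab1 were nearly as even, with SDs of 0.07, 0.08 and 0.09.

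Sorted by place in the enzyme, the N module that oxidises NADH (10 genes) had a median log2 difference of 0.04 and the Q module that reduces ubiquinone (5 genes) one of -0.16. The proximal membrane arm (8 genes) had a median of -0.05 and the distal membrane arm (11 genes) one of -0.06. In the Q module 4 of 5 genes lay below 0, namely Ndufs3, Ndufs7, Ndufs8 and Ndufa9. None of the 5 reached an unadjusted p under 0.05, against 9.67% of all tested genes.

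Assembly genes were the most uneven class, with 5 of 7 above 0, a median of 0.04 and the largest single difference among the members. The median ran from 0.00065 (without ethanol 5) to 0.0776 (without ethanol 4) as each array was left out. Ndufaf8, a partner of the hydroxylase Ndufaf5 that acts on Ndufs7, ran from 7.04 to 7.85 with a median of 7.51 in ethanol kidneys, against 7.34 to 8.32 with a median of 8.07 in controls. All 6 ethanol kidneys lay below the control median, and 4 of 6 controls lay above every ethanol kidney. Control 2 (7.34) and control 5 (7.72) fell among the ethanol values. The difference was -0.48 ± 0.19 (SE, 95% interval -0.88 to -0.09), at an unadjusted p of 0.0198 and an adjusted p of 0.379 in limma, and it ran from -0.61 to -0.40 as each array was left out. A second, dimmer probe of Ndufaf8 was above background in 2 of 6 ethanol and 5 of 6 control kidneys and differed by -0.20 ± 0.12 (SE).

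Ndufaf7, a methyltransferase that acts on a core subunit, ran from 7.44 to 8.18 with a median of 7.93 in ethanol, against 7.73 to 8.53 with a median of 8.24 in controls. Ethanol 2 was lowest, and control 2 was the lowest control (log2 difference -0.33 ± 0.16 SE; limma, adjusted p = 0.413). The remaining factors lay close to 0 or above it. Ndufaf1, needed for the membrane arm, averaged 11.73 ± 0.09 over the ethanol kidneys and 11.68 ± 0.08 over the control kidneys (SD) and had the smallest SD of its class, 0.08. Ndufaf4, which works with Ndufaf3, differed by 0.11 ± 0.13 (SE) by one probe and 0.32 ± 0.17 by the other, and its brighter probe reached 12.07 in ethanol 5, where the control range was 11.28 to 11.52. Ndufaf5 (0.08), Ndufaf2 (0.07), which binds in the late steps of assembly, and Ndufaf3 (0.03) made up the rest.

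**Figure D2:**
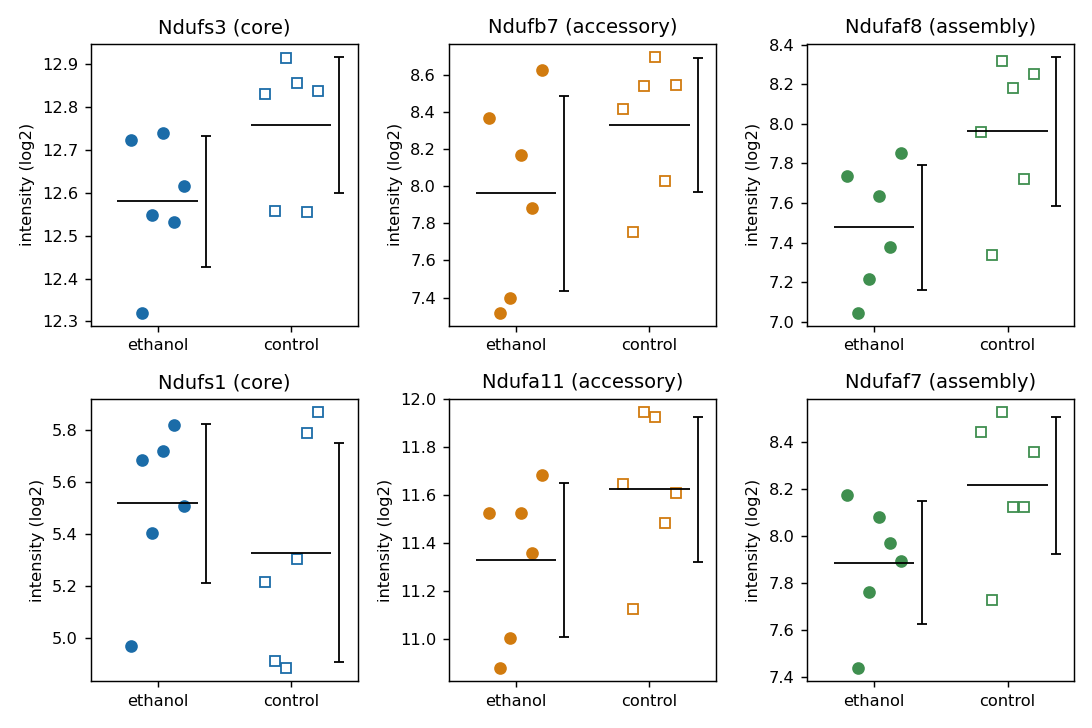
Normalised log2 intensity per kidney for 6 complex I genes, ethanol (filled circles) left of control (open squares), with the group mean as a line and its SD as a bar (n = 6 each); each panel has its own intensity axis, which does not start at 0. The groups overlap in all 6 panels, and Ndufaf8 shows the largest shift (7.48 ± 0.32 in ethanol, 7.96 ± 0.38 in controls).

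Where a gene had several probes, they often did not give the same answer. Several probes were tested for 16 member genes, and for 9 of these the signs were mixed (56.2%), against 46.9% of 5009 such genes on the array. Ndufv3 had the widest gap: its dimmest probe differed by -0.46 ± 0.28 (SE) and its other 2 probes by 0.05 and -0.04. That dim probe ran from 5.41 to 6.86 in ethanol and from 5.66 to 7.42 in controls, with ethanol 2 and control 2 the lowest of their groups.

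Of the 4 probes of Ndufab1, 1 ran from 10.59 to 11.12 in ethanol against 10.97 to 11.44 in controls, a difference of -0.30 ± 0.13 (SE; limma, adjusted p = 0.386). The other 3 gave 0.05, -0.02 and 0.11, so the unadjusted call for the acyl carrier protein rests on 1 probe of 4. Ndufa8, a subunit on the intermembrane-space side, was on the same side by both probes but not by the same amount. One ran from 10.47 to 11.24 in ethanol against 11.06 to 11.58 in controls (-0.32 ± 0.14 SE; limma, adjusted p = 0.402). The brighter one ran from 13.19 to 13.45 in ethanol against 13.31 to 13.61 in controls (-0.09 ± 0.10 SE).

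Ndufb8 gave -0.26 by its dimmer and 0.08 by its brighter probe. The 4 probes of Ndufs4, an accessory subunit whose loss causes a Leigh-like disease in mice, lay close together, from 0.09 to 0.16, and correlated with each other at 0.82 to 0.96 over the 12 kidneys. Control 4 was the lowest of the 12 kidneys for each of them, at 11.88, 12.76, 12.49 and 11.90. The control medians were 12.56, 13.20, 12.93 and 12.62. How far the differences and correlations of these probes rest on control 4 was not tested. For Ndufab1 the lowest correlation between 2 of its probes was -0.51. The probes are given by symbol only, so which transcript or pseudogene copy each one reads was not tested. The RefSeq gene table lists near copies or pseudogenes of Ndufb4, Ndufab1, Ndufa12, Ndufs6 and Ndufa11, for which the values are less certain.

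**Figure D3:**
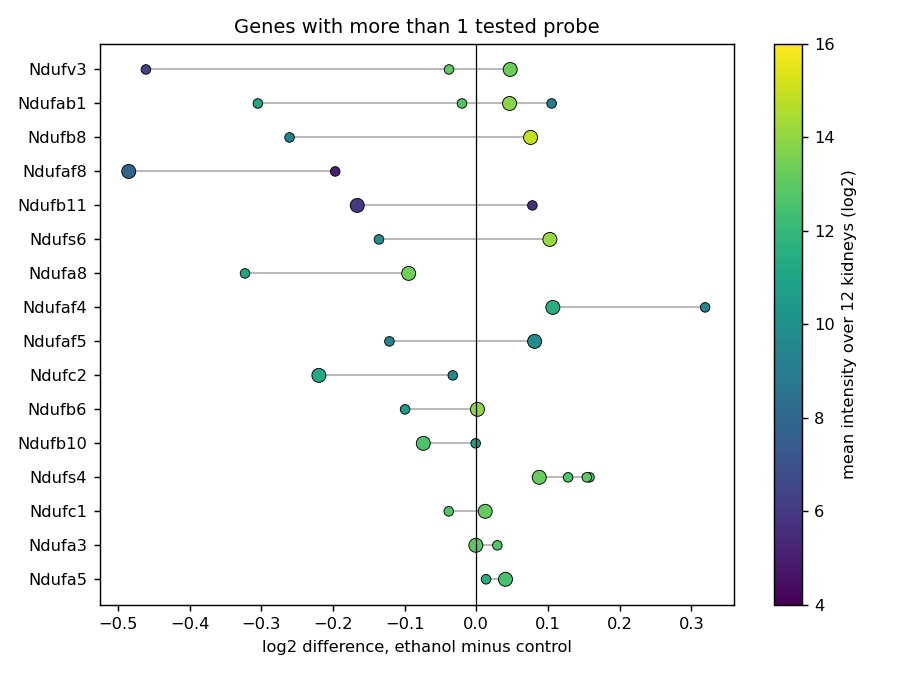
Log2 difference (ethanol minus control) of every tested probe for the 16 complex I genes that had several; large dots are the probe that stands for the gene, and colour gives the probe's mean log2 intensity over 12 kidneys. Probes of Ndufv3 span -0.46 to 0.05 and those of Ndufab1 -0.30 to 0.11, while the 4 probes of Ndufs4 lie between 0.09 and 0.16. For all 4 probes of Ndufs4, control 4 was the lowest kidney.

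By the probe that stood for each gene, complex I varied little from kidney to kidney. The median SD over the 12 kidneys was 0.14 on the log2 scale, against 0.26 over all tested genes, and 35 of the 42 members lay below that array-wide median. By class the median SD was 0.13 for core, 0.13 for accessory and 0.20 for assembly genes. The widest of the probes that stood for a gene were those of Ndufb7 (0.47), Ndufaf8 (0.42), Ndufs1 (0.37), Ndufb11 (0.34), Ndufa11 (0.34) and Ndufaf7 (0.32). All of them but that of Ndufa11 were dim, with ethanol means from 5.52 (Ndufs1) to 7.96 (Ndufb7). The most even one, of Ndufc1, averaged 13.14 in ethanol. Spread was not compared at matched intensity, so the part of intensity in these SDs was not tested. The classes were not tested against each other in spread.

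Averaged over a class after each gene was centred on its own mean, core genes stayed between -0.04 and 0.03 in ethanol kidneys and between -0.07 and 0.06 in controls. Accessory genes ran from -0.17 to 0.10 in ethanol and from -0.06 to 0.17 in controls, with means of -0.04 ± 0.09 and 0.04 ± 0.09 (SD, n = 6 each). Assembly genes ran from -0.13 to 0.13 in ethanol and from -0.18 to 0.18 in controls, with means of -0.03 ± 0.11 and 0.03 ± 0.13 (SD, n = 6 each). In each class the gap between the group means was smaller than the SD within a group. Ethanol 2 held the lowest value of 13 of the 42 genes, while control 3 held the highest of 14 and control 4 the highest of 11.

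**Figure D4:**
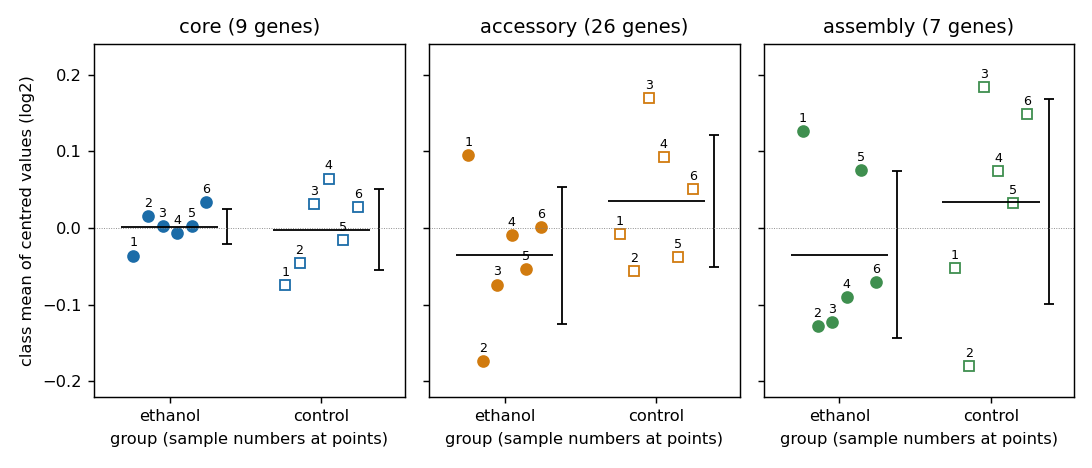
Mean of gene-centred log2 values per kidney for core, accessory and assembly genes, ethanol (filled circles) left of control (open squares), with sample numbers at the points, a line for the group mean and a bar for its SD (n = 6 each). Core means stay within -0.07 and 0.06, accessory means run from -0.17 (ethanol 2) to 0.17 (control 3), and the groups overlap in all 3 classes.

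The accessory and assembly profiles ran together over the 12 kidneys (Pearson's r = 0.77, Spearman's rho = 0.80, and r = 0.68 without control 3 and ethanol 2). The core profile followed the accessory one less closely (r = 0.26, rho = 0.31, and r = 0.16 without control 1 and control 4) and the assembly one likewise (r = 0.34, rho = 0.28, and r = 0.28 without the same samples). The core mean holds 9 genes, among them Ndufs1, whose probe lay near background. The SD of that probe was 0.37, against a median of 0.13 for core genes. How far the lower r of the core profile rests on Ndufs1 was not tested. These values are descriptions, since all profiles come from the same 12 arrays. Pairs of single genes were only loosely related: the median r was 0.12 over 861 pairs of members, against 0.01 over all pairs of tested genes, and 21.5% of member pairs exceeded 0.5, against 11.3% of all pairs.

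The members did not move as a block. Set against the mean of the other tested members, 18 of 42 genes had an r above 0.5 and 10 had one below 0. Ndufc2 (0.85), Ndufa11 (0.84), Ndufaf8 (0.83), Ndufa2 (0.82), Ndufs3 (0.82) and Ndufb9 (0.82) followed it most closely. Ndufv1 (-0.53), Ndufs1 (-0.43), Ndufa1 (-0.32), an X-linked membrane subunit, and Ndufaf1 (-0.31) ran against it. The median was 0.50 for accessory, 0.25 for assembly and 0.01 for core genes. Accessory genes make up 26 of the 42, so the mean used for comparison is largely theirs. The 6 conserved catalytic subunits were split: Ndufs3 (0.82), Ndufs8 (0.71), Ndufs7 (0.60) and Ndufv2 (0.26) lay above 0, Ndufs1 (-0.43) and Ndufv1 (-0.53) below. Of the core genes that are accessory by function, Ndufv3 had an r of 0.01, Ndufs6 of -0.13 and Ndufs4 of -0.30.

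**Figure D5:**
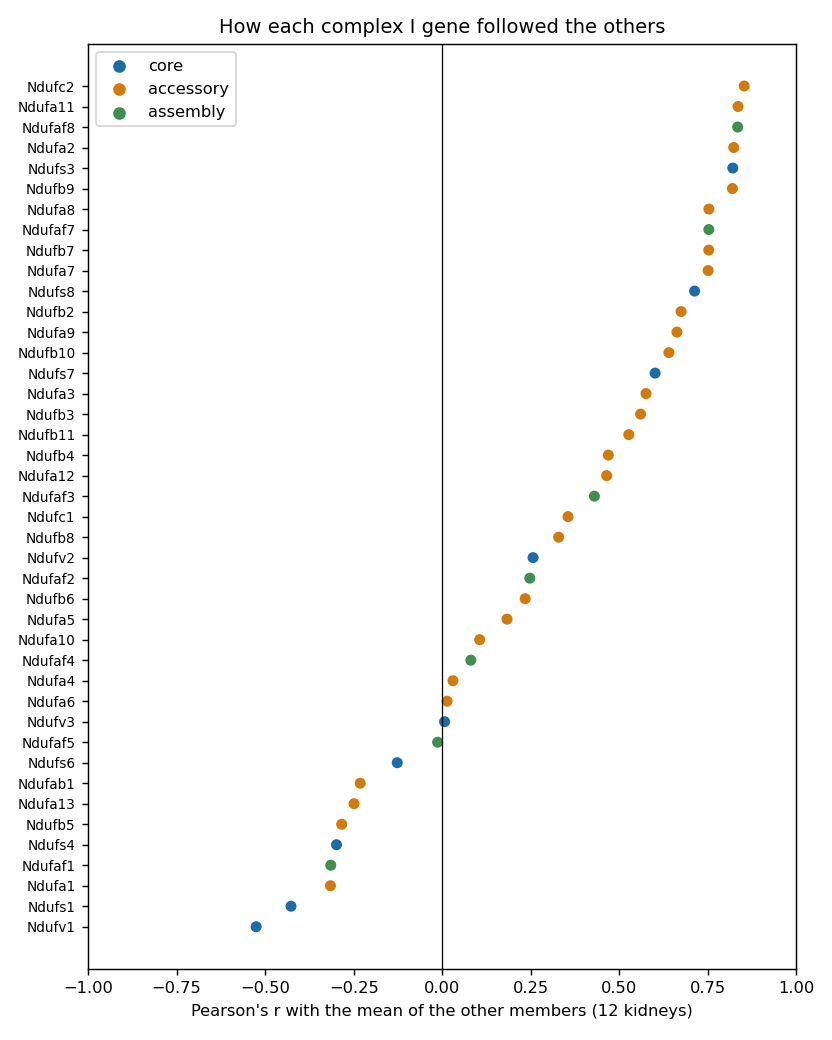
Pearson's r over 12 kidneys between each complex I gene and the mean centred profile of the other tested members, coloured by class. Values run from 0.85 (Ndufc2) to -0.53 (Ndufv1), and 10 of the 42 genes lie below 0.

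Among the other tested genes, the 5 whose pattern over the 12 kidneys was most like the mean of the complex I genes were Mea1 (r = 0.96), Psmg3 (0.95), E430018J23Rik (0.95), Eif4e2 (0.94) and Mtfp1 (0.94), the last a protein of mitochondrial fission. Elmo1 (-0.93), Nin (-0.92) and Pdpr (-0.92), the regulatory subunit of pyruvate dehydrogenase phosphatase, were the most opposite. They were picked from all other tested genes for their likeness, so the values carry no test. With median scaling in place of quantile normalization the r of Mea1 was 0.81 and that of Pdpr -0.53.

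Of the 7 mitochondrial subunits of complex I, 5 had a probe under the platform's symbols. Of these, 0 of 5 reached an unadjusted p under 0.05, against 9.67% of all tested genes, a share at which so few genes say little. ND1 ran from 15.22 to 15.46 in ethanol and from 15.07 to 15.35 in controls (log2 difference 0.11 ± 0.09 SE). ND4 (0.03), ND4L (0.11) and ND5 (0.12) were on the same side. ND6, encoded on the opposite strand to the others, was spread from 8.14 to 10.53 in ethanol and from 9.22 to 10.38 in controls (-0.06 ± 0.35 SE).

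Of 15 assembly factors without the Nduf name, 14 were on the array and 13 tested, with 8 below 0 and a median of -0.02. Acad9, an acyl-CoA dehydrogenase relative that also builds complex I, was the 1 with an unadjusted p under 0.05 (lower, where 4.95% of all tested genes were), averaging 9.63 ± 0.29 over the ethanol kidneys and 10.01 ± 0.27 over the control kidneys (SD; log2 difference -0.38; limma, adjusted p = 0.386). Ecsit, which works in the same assembly complex, differed by -0.09 and Aifm1, which imports subunits with Chchd4, by 0.21.

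Of 16 regulators of mitochondrial gene expression, all tested, 13 lay above 0, against 54.6% of all tested genes, with a median of 0.12 against 0.02. Of the 16, 2 reached an unadjusted p under 0.05 and were higher, where 4.72% of all tested genes were. Nrf1, for which the motif above is named, averaged 9.59 ± 0.16 over the ethanol kidneys and 9.28 ± 0.17 over the control kidneys (SD; log2 difference 0.31; limma, adjusted p = 0.379). Creb1 averaged 6.59 ± 0.21 over the ethanol kidneys and 6.02 ± 0.50 over the control kidneys (SD; log2 difference 0.57; limma, adjusted p = 0.379). For Creb1 the difference was 0.16 with the probes of the gene averaged and 0.39 with an offset of 50. The coactivator gene Ppargc1a (-0.01), Esrra (0.01) and Tfam (0.11) lay near 0. The mean of this list followed the complex I profile with an r of -0.71 over the 12 kidneys.

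Markers of other tissues and cell types were set beside the complex I profile, among them fat, since brown fat is rich in mitochondria. Of 6 fat genes 5 were tested, all above 0 in the comparison. None was at an unadjusted p under 0.05, against 9.67% of all tested genes. Their mean centred level ran from -1.89 to 1.90 in ethanol and from -1.94 to 1.12 in controls. Ucp1, the uncoupling protein of brown fat, ran from 4.70 to 11.11 in ethanol and from 4.53 to 9.16 in controls. Cox7a1, in the same list, ran only from 10.66 to 11.54 in ethanol and from 10.58 to 11.13 in controls. The fat list followed the complex I profile with an r of -0.51, and its part in that profile was not tested. The lymphocyte markers Cd3e (-0.74), Cd3d (-0.63) and Cd52 (-0.41) all lay below 0, each at an unadjusted p under 0.05, where 4.95% of all tested genes were lower, and with adjusted p-values of 0.379 to 0.388 (limma). Their mean centred level ran from -0.53 to 0.25 in ethanol and from -0.07 to 1.19 in controls, with an r of 0.50 to the complex I profile, and its part in that profile was not tested either. The thick ascending limb genes Umod and Slc12a1 both lay above 0 (0.07 and 0.31), and their mean had an r of -0.66 to the complex I profile. All 4 proximal tubule genes lay above 0 too, but their mean had an r of only -0.19 to it. The r was 0.34 for the distal convoluted tubule list, 0.22 for the collecting duct list and -0.04 for the red cell list. The podocyte gene Nphs1 (-0.47; limma, adjusted p = 0.410) and the adrenal gene Cyp11a1 (0.46; limma, adjusted p = 0.397) also reached an unadjusted p under 0.05, with an r of 0.44 and -0.23 to that profile. Cyp11a1 was near background, above it in 6 of 6 ethanol and 3 of 6 control kidneys. The other adrenal genes listed, Star and Cyp11b1, were too dim to be tested. The part of these lists in the complex I profile was likewise not tested.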

How the data were processed

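Biotin-labelled RNA from 12 kidneys was measured on Illumina arrays. The deposited table holds linear intensity per probe. Some background had been taken off, since from 8.16% to 33.3% of an array's values are negative. GenomeStudio is named per the submitters' processing notes; version, kind of background and scaling are not stated there. A second table was not used, since its 24 value columns match no sample's label.

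The background mean of an array was taken as the peak of its intensity density (bandwidth 2, searched under the 0.6 quantile) and its SD from the spread on the low side. The deposited intensities then went through a normal-exponential correction with an offset of 16, quantile normalization and log2. This model replaces the negative control probes, and dim probes depend on it most. All fits used limma (3.58.1; R 4.3.3). A probe counted as above background when a normal distribution with that mean and SD gave it a p under 0.05. The comparison was ethanol minus control (lmFit and eBayes, two-sided), with Benjamini-Hochberg adjustment over all 23984 tested probes. The fit was tested on simulated data.

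The platform's annotation pairs 34885 probes with 1 symbol, 18 with more and 10378 without any, and the RefSeq table of GRCm38.p6 changed 0 of these symbols. The members, lists and rules were chosen with earlier results of these data known. Named members were those with a probe at an unadjusted p under 0.05 and, in each class, the 2 largest differences and the largest and smallest SD; other members are given as values and were picked after these were seen. Alternatives were the background, offset, scaling, filter, probe averaging, array weights, trend, replicate block and leaving out each array.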

Additional observations from a re-analysis of the deposited data

Results flagged for a closer look

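The named genes and probes and the class means were looked at in each group, 40 sets of 6 values in all, and 2 of them had a kidney far from the other kidneys of its group. Chance alone gives about 1 such set in 20. Ethanol 5 stood above the other ethanol kidneys for Ndufc1, the accessory gene with the smallest spread, at 13.21 against 13.11 to 13.15. That gap is 0.632 of the range of the ethanol kidneys. Ethanol 1 stood below the other ethanol kidneys for the regulator gene Creb1, at 6.19 against 6.59 to 6.75, and here the gap is 0.718 of the range.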

How the results depend on the processing

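The absence of complex I probes past an adjusted p under 0.05 held under all 21 alternatives tried. Over the whole array 2 probes passed with the deposited values as they stand, and 0 otherwise. The number of all probes at an unadjusted p under 0.05 ran from 1807 (without ethanol 2; 1828 without ethanol 3) to 3773 as each array was left out. For complex I probes lower in ethanol, that number was 5 with an offset of 50, 1 with the deposited values, 6 without a filter on dim probes, 6 with array weights and 0 to 7 as each array was left out. For those higher in ethanol it was 0 to 1, with 1 without control 3, ethanol 1 or ethanol 4. The median log2 difference of the core genes was 0.0041 with the strict filter, -0.0391 with probes averaged, and 0.00562 (without control 4) to 0.0713 as each array was left out.

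Of 349 alternative values for 16 named genes and probes, 342 kept their sign and 7 turned it; the cause was not tested. The turned ones were Ndufab1 at -0.0433 and Ndufv3 at -0.15 with probes averaged, and Ndufc1 at -0.0043 with median scaling, -0.0089 with the deposited values, -0.013 with probes averaged and -0.0041 to 0.0287 as each array was left out (-0.0041 without control 1, -0.00069 without ethanol 5). The smallest adjusted p of a named gene under any of them was 0.164 (Ndufaf8, limma with the replicate block).

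The labels do not say whether replicate numbers pair the samples, and the main fit used no replicate block. Same-numbered deviations correlated at 0.0010 to 0.465, with 1 of 6 pairs above 0.1. Without the same values for differently numbered samples beside them, these correlations cannot decide whether the numbers pair the samples. With the replicate block 7 complex I probes were lower at an unadjusted p under 0.05, 3555 of all probes reached that level and 0 passed the adjusted threshold. Signal over background limits the values of Ndufs1, Ndufb11 and the second probe of Ndufaf8, which were near background on some arrays.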
